A study of Mus musculus with 8 samples.

Results

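Hox, Fox, Tbx, Sox, Meis, Pbx and Meox genes and the sine oculis homeobox genes encode transcription factors that give the cells of an embryo their place and type, and 130 protein-coding genes of these 8 families were followed in cultured mouse brain pericytes. The members were chosen by gene symbol alone, out of 54532 gene identifiers with counts: 39 Hox, 44 Fox, 13 Tbx, 19 Sox, 3 Meis, 4 Pbx, 6 sine oculis and 2 Meox genes. Pericytes wrap the capillaries as their mural cells. TGF-β1, a cytokine, acts through receptors that activate SMAD proteins. RNA was sequenced from 4 cultures kept with vehicle and 4 cultures kept with 5 μg per mL TGF-β1, all for 48 h. All 8 were primary cultures from wild-type (WT) mouse brain, labelled as pericytes and numbered 1 to 4 (vehicle) and 5 to 8 (TGF-β1). According to the study's methods the cells were grown out of papain-digested brain over several passages, so they had left the vessel wall. For the study's animals the methods name male mice of 4 and 6 months. Which of these ages gave the brains, and whether brains were pooled, is not given in the sources used here. The methods speak of isolates that received both treatments, but no label ties a vehicle culture to a TGF-β1 culture, so the groups were compared as unpaired. p-values measure the spread between these cultures.

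The families divide the work of patterning. Hox genes lie in 4 clusters, and the order of the genes in a cluster follows the order in which they are used along the body axis, from the hindbrain to the tail. Cells of the forebrain and of the most anterior neural crest, which gives rise to mural cells and meninges of the forebrain, develop without Hox expression. Meis and Pbx are TALE homeodomain proteins that bind DNA together with Hox proteins and with other partners. Fox proteins carry a forkhead domain, Tbx proteins a T-box, Sox proteins an HMG box, and sine oculis proteins a homeodomain beside a domain that binds Eya coactivators. In bulk RNA, fewer cells of a type and less RNA per cell cannot be told apart.

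The counts summed to between 45255235 and 47651397 per culture. Values are given as CPM, the counts of a gene scaled by the total of the culture after TMM adjustment, and levels of different genes are compared as CPM per kilobase of exon (kb). A count of 3 was worth 0.0630 to 0.0663 CPM. Of the 14 genes on a list of pericyte markers, 8 had a mean of at least 1 CPM. Of the 14, 10 were tested, 4 were higher and 3 lower, and their sum ran from 618 to 641 CPM with vehicle and from 761 to 790.3 CPM with TGF-β1. Over all 22544 tested genes 20.9% were higher and 20.3% lower, the shares to set beside the counts of this and every later list. *Pdgfrb* went from 202 ± 5.42 to 291 ± 2.58 CPM (SD, n = 4 in each group) and *Rgs5* from 8.61 ± 0.466 to 2.13 ± 0.245 CPM, while *Kcnj8*, *Abcc9* and *Vtn*, which mark brain pericytes in the vessel, averaged 0.0108, 0.112 and 0.0863 CPM with vehicle. *Cdh5*, an endothelial cadherin, was at 375 CPM with vehicle. Of the 12 genes on a list of endothelial markers, 6 had a mean of at least 1 CPM. Without its highest gene the list summed to at most 126.9 CPM in a culture. Among its low genes *Tie1*, *Cldn5* and *Erg* averaged 0.0325, 0.0754 and 0.0539 CPM. On the smooth muscle list *Acta2* was at 730.4 CPM with vehicle and *Myocd* at 0.152 CPM. The list summed from 849 to 923 CPM with vehicle and from 795 to 829.8 CPM with TGF-β1, with 2 of 7 tested genes higher and 2 lower. The macrophage and microglia list summed from 2.94 to 3.86 CPM with vehicle and from 4.34 to 5.16 CPM with TGF-β1, with 1 of 5 tested genes higher (*Csf1r*), none lower and *C1qb* at 0 in all 8 cultures.

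Expression divided the families sharply. None of the 39 Hox genes and neither Meox gene reached a mean of 1 CPM over the 8 cultures, whereas all 3 Meis, all 4 Pbx and all 6 sine oculis genes did, with 25 of 44 Fox, 6 of 13 Tbx and 8 of 19 Sox genes. In all, 52 of the 130 members had a mean of at least 1 CPM. A filter on low counts (edgeR's filterByExpr) passed 60 members, and the 70 that failed it were all 39 Hox genes, both Meox genes, 15 Fox, 6 Tbx and 8 Sox genes. The highest level per kilobase among the untested members was 0.173 CPM per kb, for *Foxs1*.

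**Figure D1:**
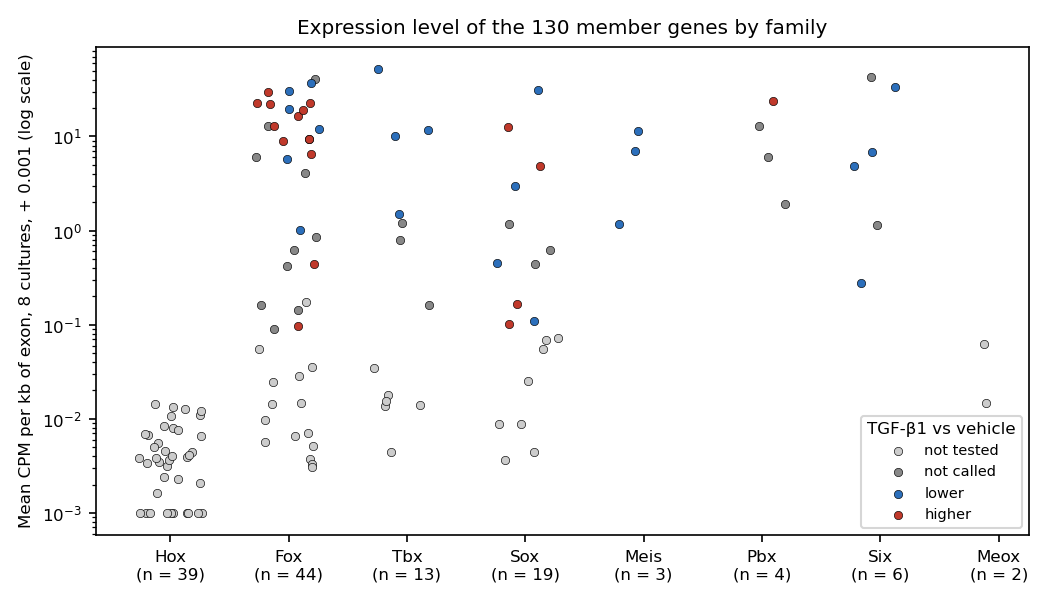
Mean level of each of the 130 members over the 8 cultures, as CPM per kilobase of exon plus 0.001 on a log axis, by family; each point is a gene and the colour gives the edgeR call of TGF-β1 against vehicle (red higher, blue lower, dark grey not called, light grey not tested). All 39 Hox genes lie at the bottom, while *Tbx15* stands highest at 51.8 CPM per kb.

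Upstream sequences are shown for 4 members on which the account turns: *Foxf2* and *Foxc1*, which lie side by side and moved in opposite directions, *Foxd1*, which fell more than *Foxc1*, and *Hoxa10*, a Hox gene with at most 4 counts in a culture. Each run holds the 250 bases before the RefSeq start on GRCm38.p6, written 5′ to 3′ on the strand of the gene, and capitals mark CG dinucleotides. The windows are chr13:31625566-31625815, plus strand (*Foxf2*), chr13:31806396-31806645, plus strand (*Foxc1*), chr13:98353995-98354244, plus strand (*Foxd1*) and chr6:52240855-52241104, minus strand (*Hoxa10*).
Foxf2: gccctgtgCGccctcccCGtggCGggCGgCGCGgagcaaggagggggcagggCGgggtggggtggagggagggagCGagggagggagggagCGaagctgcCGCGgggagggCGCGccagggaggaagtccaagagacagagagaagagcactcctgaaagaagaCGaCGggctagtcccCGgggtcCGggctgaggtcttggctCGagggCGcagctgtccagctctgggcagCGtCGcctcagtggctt
Foxc1: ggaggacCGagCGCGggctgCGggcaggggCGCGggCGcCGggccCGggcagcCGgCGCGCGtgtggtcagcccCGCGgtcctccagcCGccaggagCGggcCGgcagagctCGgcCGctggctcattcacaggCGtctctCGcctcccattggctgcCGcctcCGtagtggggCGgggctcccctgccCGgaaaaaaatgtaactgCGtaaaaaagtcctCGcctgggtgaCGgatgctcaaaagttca
Foxd1: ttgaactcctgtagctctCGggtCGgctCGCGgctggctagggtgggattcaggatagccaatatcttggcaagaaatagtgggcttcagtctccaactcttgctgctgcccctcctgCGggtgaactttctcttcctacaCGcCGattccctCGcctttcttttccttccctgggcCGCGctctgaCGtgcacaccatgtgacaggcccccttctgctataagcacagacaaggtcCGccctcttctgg
Hoxa10: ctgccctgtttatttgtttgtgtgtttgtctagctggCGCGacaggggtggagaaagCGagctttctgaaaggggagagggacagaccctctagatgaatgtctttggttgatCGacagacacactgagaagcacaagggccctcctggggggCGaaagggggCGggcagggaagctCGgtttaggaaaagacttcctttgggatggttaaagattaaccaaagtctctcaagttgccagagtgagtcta
The *Foxf2* window held 21 CG dinucleotides, the *Foxc1* window 29, the *Foxd1* window 12 and the *Hoxa10* window 7. On the opposite strand, 227 bases of the *Foxf2* window are exon of *1700018A04Rik*, a long noncoding RNA that starts next to *Foxf2*.

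The RefSeq table held a promoter (250 bases before to 50 after the start, 300 in all) for 83 of the 130 members. The median number of CG dinucleotides was 16 over these 83, against 7 over all 32851 promoters in the table. Among the 33 matched members with a mean of at least 1 CPM it was 21, and among the 22 matched Hox genes it was 13.5. CAGAC, the core of a SMAD binding element, was searched on both strands, so as CAGAC or GTCTG. It occurred in 36 of the 83 (43.4%), in 16 of the 33 expressed members (48.5%) and in 49.6% of all promoters in the table. GGCGC (or GCGCC on the other strand), a GC-rich SMAD motif that can share bases with CG-rich sequence of any kind, was in 53 of the 83 (63.9%) and in 36.9% of all promoters. These are matches of letters in a fixed window.

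Hox genes were at or near 0 in every culture. Of the 39, 10 had no count in any of the 8 cultures: 4 Hoxb, 1 Hoxc and 5 Hoxd genes. The largest count of any Hox gene in any culture was 6. Summed over all 39 genes, the vehicle cultures held 13, 26, 17 and 12 counts and the TGF-β1 cultures 18, 18, 15 and 20. These ranges overlap, and the smallest of these libraries holds 45255235 counts. *Hoxc6* had the highest level in the family, 0.0134 CPM per kb, or 0.0323 CPM, which is below the value of 3 counts. No Hox gene was tested for a change, because none passed the filter.

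Low values covered each cluster from end to end, on GRCm38 Hoxa at chr6:52155590-52260880, Hoxb at chr11:96194316-96368256, Hoxc at chr15:102921103-103036852 and Hoxd at chr2:74668310-74765142. In CPM per kb summed over the genes of a cluster, the vehicle cultures averaged 0.0775 ± 0.0629 for Hoxa (11 genes), 0.00986 ± 0.0118 for Hoxb (10 genes), 0.0503 ± 0.0223 for Hoxc (9 genes) and 0.0183 ± 0.0230 for Hoxd (9 genes; SD, n = 4 throughout). With TGF-β1 the sums averaged 0.0425 ± 0.0289, 0.0177 ± 0.0128, 0.0690 ± 0.0281 and 0.0152 ± 0.0115. The ranges of the groups overlapped in all 4 clusters. Anterior and posterior paralogous groups did not stand apart at this depth: group 1 averaged 0.0120 CPM per kb with vehicle and group 13 0.0178, and group 12 had no count at all. The other annotated genes inside the clusters (20, 9, 7 and 10 in Hoxa to Hoxd), most of them noncoding, were also low, and none passed the filter. *Gm11539* in the Hoxb cluster was at a mean of 0.197 CPM. Hotair, the noncoding RNA of the Hoxc cluster, was at 0.0108 CPM.

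Genes just outside the clusters, chosen after the data were seen, were active on most sides. Next to Hoxa, *Skap2* (143 kb away) was at 37.1 ± 0.810 CPM with vehicle and 38.9 ± 2.19 CPM with TGF-β1. Next to Hoxd, *Mtx2* (60.7 kb away) was at 32.1 ± 1.97 and 32.4 ± 2.64 CPM, and *Lnpk* (88.9 kb away) went from 40.8 ± 1.40 to 45.1 ± 1.44 CPM (edgeR adjusted p = 0.00179). Next to Hoxc, *Smug1* (116 kb away) went from 22.1 ± 0.714 to 19.8 ± 0.633 CPM (edgeR adjusted p = 0.00821). *Evx1* and *Evx2*, homeobox genes at the posterior ends of Hoxa and Hoxd, were at 0.0073 and 0.0077 CPM per kb with vehicle, within the range of the Hox genes, whose vehicle means ran from 0 to 0.0249 CPM per kb. Around Hoxb the nearest genes *Ttll6* and *Skap1* were at 0.527 and 0.438 CPM, and of the next ones *Calcoco2* (82.4 kb away) was at 0.0860 CPM and *Snx11* (399 kb away, on the other side) at 21.3 ± 1.30 CPM. No gene beyond the nearest 2 on each side was examined.

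**Figure D2:**
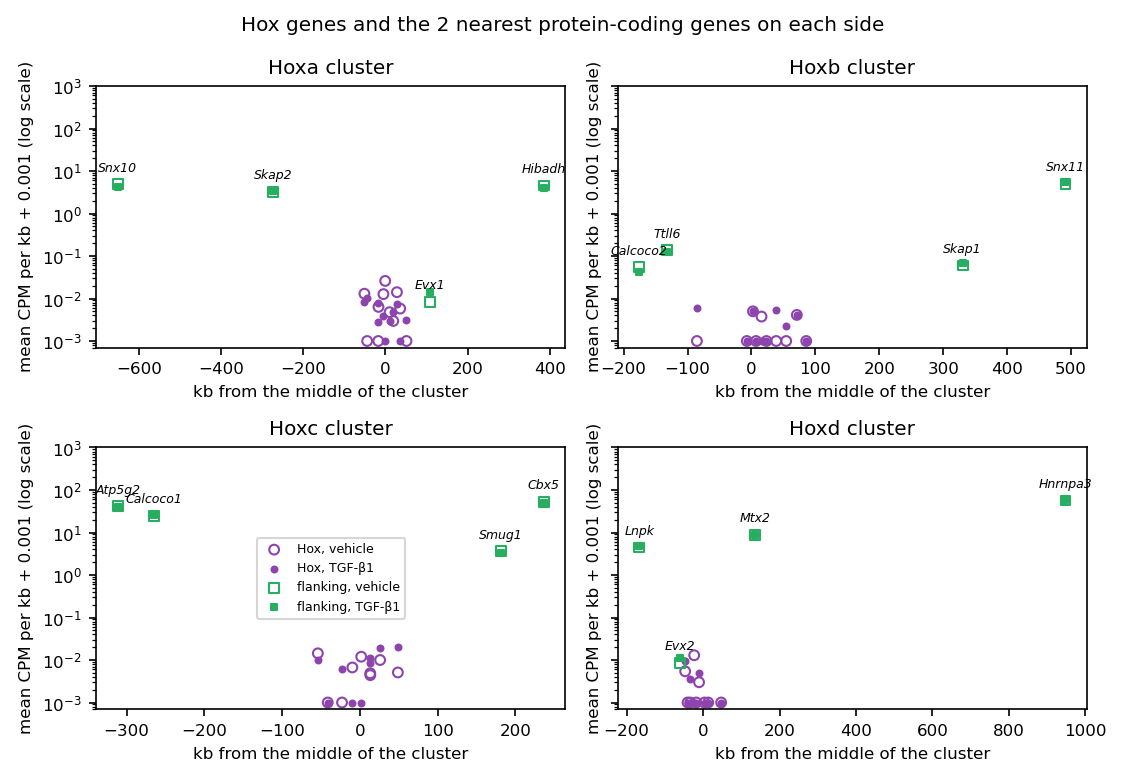
Mean level (CPM per kb of exon plus 0.001, log axis) of the Hox genes (circles) and of the 2 nearest protein-coding genes on each side (squares) against distance from the middle of each cluster in kb, with vehicle (open) and TGF-β1 (filled), n = 4 cultures each. The Hox genes lie at the bottom of all 4 panels, while *Skap2*, *Mtx2*, *Lnpk* and *Smug1* outside them reach 3.27 to 8.74 CPM per kb with vehicle.

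Several of the members with the highest levels are known from head mesenchyme and meninges. Per kilobase, family leaders were *Tbx15* (51.8 CPM per kb), *Six2* (42.4), *Foxo3* (40.9), *Sox9* (30.9) and *Meis3* (11.3). *Tbx15* stood above 96.7% of the 22544 tested genes on this scale, *Six2* above 95.6% and *Foxo3* above 95.3%. *Tbx15* is a T-box gene of craniofacial and dermal mesenchyme, and *Six2* keeps mesenchymal progenitors undifferentiated in kidney and skull base. *Foxc1* (36.9 CPM per kb) and *Foxc2* (30.3) are forkhead genes of meninges and vessel walls.

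Other patterning genes, from a list of 58 homeobox, paired box, Zic and related factors, were read beside the members. Of the 58, 28 had a mean of at least 1 CPM. Among them, chosen after their values were seen, *Prrx1* was at 531 CPM with vehicle, *Tfap2b* at 249.5, *Zic2* at 250.03, *Alx4* at 159.5 and *Lmx1b* at 91.0, genes of cranial mesenchyme, neural crest and meninges. *Otx2*, a marker of forebrain and midbrain neuroepithelium, had no count in any culture, nor had *Hand2* or *Tcf21*. *Pax6*, a gene of the neural tube and eye, was at 0.605 CPM.

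TGF-β1 moved many expressed members. Of the 60 tested, 38 (63.3%) passed edgeR's quasi-likelihood test at 0.05 after Benjamini-Hochberg correction over all 22544 genes, where 41.3% were called. Of the 38, 17 were higher and 21 lower with TGF-β1, against 20.9% and 20.3% of all tested genes. Because most of the tested members are well expressed, the share is better read among genes with a mean of at least 1 CPM. There 35 of the 52 members (67.3%) were called, against 51.1% of 16491 genes. That was 15 higher (28.8%, against 26.2% of genes) and 20 lower (38.5%, against 24.9%). In 33 of the 60 tested members (55.0%) no vehicle culture overlapped a TGF-β1 culture, against 37.9% of all tested genes. With a mean of at least 1 CPM this was so in 30 of 52 members (57.7%), against 46.8% of the 16491 genes. The changes were mostly small. The median absolute log2 fold change was 0.22 for the members and 0.18 for all tested genes, and the median log2 fold change was 0.03 and -0.01. With a mean of at least 1 CPM the absolute medians were 0.19 for members and 0.15 for genes. There the median log2 fold change was -0.05 for members and -0.002 for genes, so its sign for the members depends on the low genes. No test of the members as a group was made.

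By family, the direction differed, beside 20.9% higher and 20.3% lower over all tested genes. Fox genes had 12 higher, 6 lower and 11 not called of 29 tested. Sox genes had 4 higher, 4 lower and 3 not called of 11. Among Tbx genes 4 of 7 tested were lower and none was higher, and all 3 Meis genes were lower. The Tbx and Meis counts rest on few genes. With a mean of at least 1 CPM, 44.0% of 25 Fox genes were higher and 24.0% lower, against 26.2% and 24.9% of genes. The Fox falls were thus near the share of all genes. Of 8 Sox genes at that level 3 were higher and 3 lower. Replicates were tight: the median coefficient of variation of the 52 expressed members was 4.01% with vehicle and 4.05% with TGF-β1, against 4.96% and 4.73% for the 16491 genes.

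**Figure D3:**
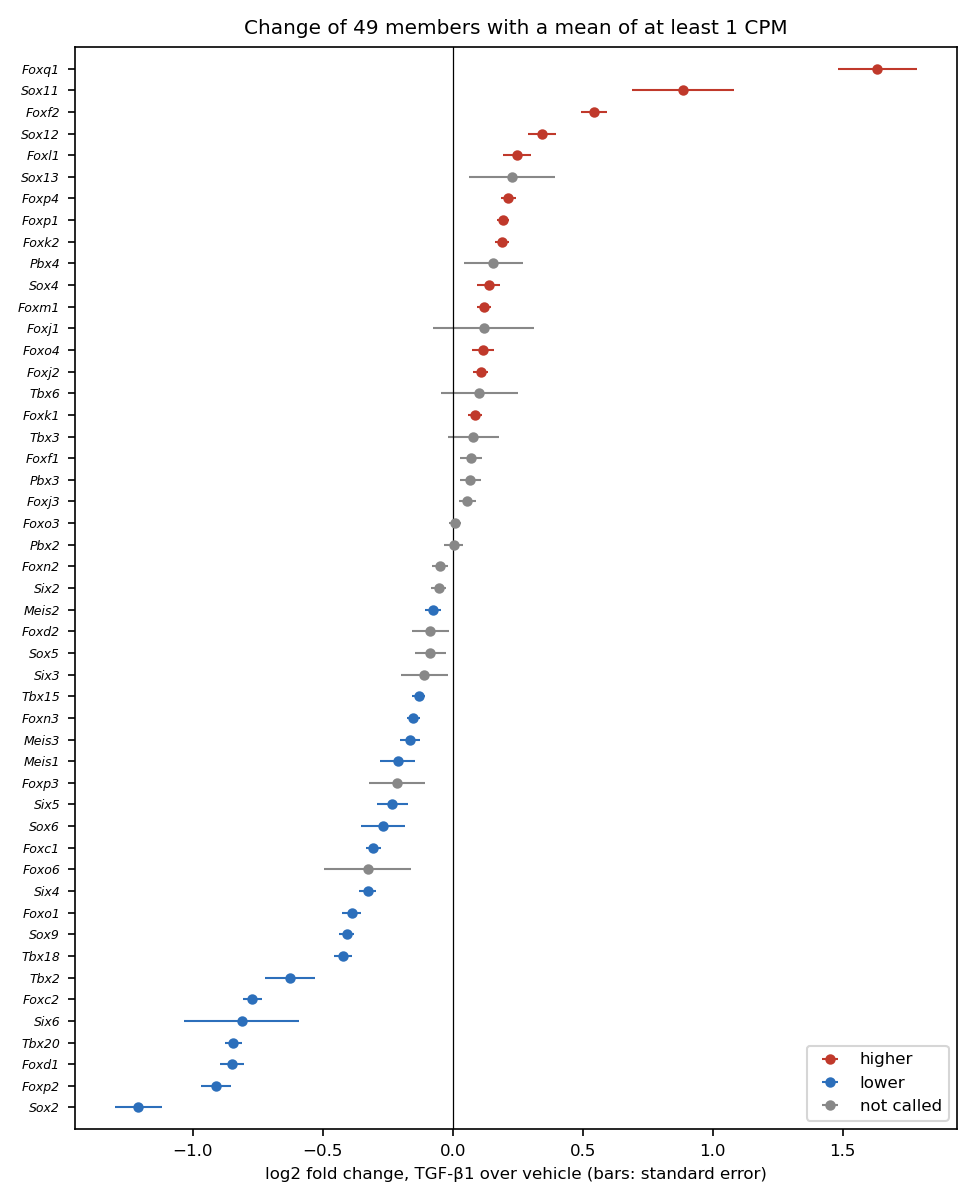
Log2 fold change of TGF-β1 over vehicle with its standard error for 49 members with a mean of at least 1 CPM, ordered by size (n = 4 cultures per group; red higher, blue lower, grey not called in the edgeR test). The range runs from -1.21 for *Sox2* to 1.63 for *Foxq1*, and most members lie within 0.5 of 0.

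Falls among forkhead genes were largest in *Foxp2*, *Foxd1* and *Foxc2*. *Foxd1* (ENSMUSG00000078302, chr13:98354242-98359305 of GRCm38) marks meningeal and kidney stromal progenitors from which some pericytes arise. *Foxd1* was at 121, 131, 129 and 134 CPM in the vehicle cultures and 78.2, 71.5, 70.9 and 65.1 CPM in the TGF-β1 cultures (log2 fold change -0.85 ± 0.05 (SE), edgeR adjusted p = 9.74e-10). Each TGF-β1 culture was far below the lowest vehicle culture. *Foxc2*, which with *Foxc1* patterns arteries, lymphatics and perivascular mesenchyme, was at 99.9, 108, 104 and 105 CPM in the vehicle cultures and 65.6, 62.3, 60.9 and 55.5 CPM in the TGF-β1 cultures (log2 fold change -0.77 ± 0.04 (SE), edgeR adjusted p = 5.57e-18). Its groups were as clearly apart. *Foxp2*, a forkhead repressor best known from the brain, was at 21.2, 22.6, 22.03 and 19.96 CPM in the vehicle cultures and 11.8, 11.2, 10.6 and 12.1 CPM in the TGF-β1 cultures (log2 fold change -0.91 ± 0.06 (SE), edgeR adjusted p = 1.73e-17). All 4 treated cultures were below all 4 vehicle cultures.

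The smaller forkhead falls that were called had the same clean separation of groups. *Foxc1* (ENSMUSG00000050295, chr13:31806633-31812476) is known from meningeal and brain mural cells. *Foxc1* was at 227, 242, 239 and 245 CPM in the vehicle cultures and 199, 199, 195 and 179 CPM in the TGF-β1 cultures (log2 fold change -0.31 ± 0.03 (SE), edgeR adjusted p = 1.27e-10). *Foxo1*, a forkhead factor held out of the nucleus by insulin and AKT signalling, went from 56.7 ± 2.46 to 43.3 ± 1.40 CPM (log2 fold change -0.39 ± 0.04 (SE), edgeR adjusted p = 2.54e-12). *Foxn3*, named after its values were seen, went from 145 ± 1.37 to 131 ± 1.74 CPM (log2 fold change -0.15 ± 0.03 (SE), edgeR adjusted p = 2.46e-06), also without overlap. The *Foxo1* relative *Foxo3*, the forkhead gene with the highest level per kilobase, went from 309 ± 4.41 to 311 ± 10.2 CPM and was not called (log2 fold change 0.01 ± 0.02 (SE), edgeR adjusted p = 0.815), with overlapping groups. The interval of 1 SE around the *Foxo3* change includes 0, and its sign turned under some alternatives. Beside the falls of *Foxc1*, *Foxc2* and *Foxd1*, a list of 12 fibroblast and meningeal markers had 2 genes higher, 3 lower and 4 not called of 9 tested. Its sum ran from 4013 to 4175 CPM with vehicle and from 5449 to 5695 CPM with TGF-β1, mostly *Col1a1* and *Col1a2*, while *Ptgds*, a meningeal gene, went from 31.1 ± 3.26 to 3.29 ± 0.562 CPM and *Alcam* from 271 ± 5.42 to 125 ± 1.599 CPM. *Slc6a13* averaged 0.108 and 0.0271 CPM in the groups and *Lum* 0.0864 and 0.0651 CPM. The part of other mesenchymal cells in the forkhead changes was not tested.

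Among forkhead genes with a mean of at least 1 CPM, the largest rises were those of *Foxq1* and *Foxf2*. *Foxq1*, a forkhead gene tied to epithelial plasticity and to brain endothelium, was at 1.21, 0.898, 0.883 and 1.13 CPM in the vehicle cultures and 3.12, 3.15, 3.23 and 3.30 CPM in the TGF-β1 cultures (log2 fold change 1.63 ± 0.15 (SE), edgeR adjusted p = 2.30e-12). Every TGF-β1 culture was far above every vehicle culture. The exons of *Foxq1* overlap *A530084C06Rik* on the opposite strand over 66.1% of their bases, and that gene had no count in any culture. *Foxf2* (ENSMUSG00000038402, chr13:31625816-31631403), which brain pericytes need to mature and to keep the blood-brain barrier, was at 17.6, 17.1, 18.6 and 18.9 CPM in the vehicle cultures and 27.7, 25.8, 26.2 and 25.6 CPM in the TGF-β1 cultures (log2 fold change 0.54 ± 0.05 (SE), edgeR adjusted p = 1.18e-12). The noncoding *1700018A04Rik*, which shares its start region, was at 2.08, 1.95, 2.14 and 1.90 CPM in the vehicle cultures and 2.64, 3.02, 3.49 and 2.42 CPM in the TGF-β1 cultures (log2 fold change 0.52 ± 0.14 (SE), edgeR adjusted p = 0.00227), again without overlap. *Foxs1*, another forkhead gene of mural cells, was too low to be tested, at 0.0434, 0.0876, 0.210 and 0.260 CPM in the vehicle cultures and 0.153, 0.587, 0.174 and 0.298 CPM in the TGF-β1 cultures, and its groups overlapped. Its values lie at 2 to 27 counts. A list of 12 endothelial markers, 6 of them tested, had 2 higher (*Flt1* and *Vwf*), 1 lower (*Tek*) and 3 not called. It summed from 472 to 485 CPM with vehicle and from 475 to 501 CPM with TGF-β1, of which *Cdh5* was the most. *Vwf* went from 1.57 ± 0.429 to 3.81 ± 0.678 CPM. The part of endothelial cells in these rises was not tested.

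**Figure D4:**
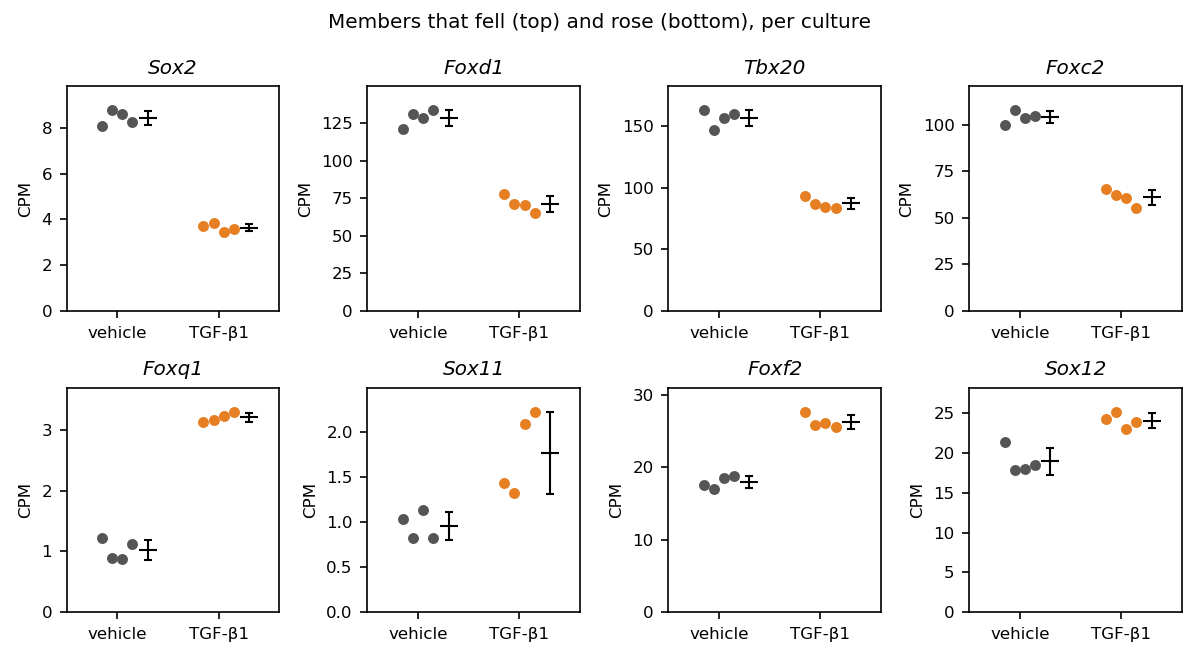
CPM in each culture for 4 members that fell (*Sox2*, *Foxd1*, *Tbx20*, *Foxc2*) and 4 that rose (*Foxq1*, *Sox11*, *Foxf2*, *Sox12*), with the mean and SD of the 4 cultures beside the points and every axis starting at 0. In all 8 panels the vehicle and TGF-β1 cultures do not overlap; *Sox11* has the widest spread with TGF-β1 for its mean, from 1.33 to 2.23 CPM.

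The other forkhead rises that were called and had no overlap of the groups were small. *Foxl1*, a mesenchymal gene best known beneath the gut epithelium, went from 16.2 ± 0.841 to 19.3 ± 0.672 CPM (log2 fold change 0.25 ± 0.05 (SE), edgeR adjusted p = 0.000186). Of the Foxp genes, *Foxp4* went from 103 ± 3.53 to 119 ± 2.39 CPM (log2 fold change 0.21 ± 0.03 (SE), edgeR adjusted p = 1.68e-08) and *Foxp1* from 290.3 ± 6.84 to 332 ± 3.34 CPM (log2 fold change 0.19 ± 0.02 (SE), edgeR adjusted p = 1.83e-09), opposite to *Foxp2*. *Foxk2*, a glycolysis regulator, went from 93.5 ± 0.601 to 107 ± 2.01 CPM (log2 fold change 0.19 ± 0.03 (SE), edgeR adjusted p = 1.09e-07), *Foxm1*, a driver of mitotic genes, from 122.7 ± 3.95 to 133 ± 3.73 CPM (log2 fold change 0.12 ± 0.03 (SE), edgeR adjusted p = 0.000398), and *Foxj2* from 66.5 ± 0.695 to 71.6 ± 1.18 CPM (log2 fold change 0.11 ± 0.03 (SE), edgeR adjusted p = 0.00314). In each of these 6 genes the groups did not overlap. *Foxk1*, outside the 12 largest rises and named here after its values were seen, went from 122.7 ± 2.79 to 130.3 ± 2.85 CPM (log2 fold change 0.09 ± 0.03 (SE), edgeR adjusted p = 0.00699), so both Foxk genes were higher. *Foxo4* and *Foxn1* were also called higher, with log2 fold changes of 0.12 and 1.17 and overlapping groups, and their calls were lost in some alternatives. *Foxf1*, *Foxd2*, *Foxj3* and *Foxn2*, also named after their values were seen, were among the 11 Fox genes not called, with log2 fold changes of 0.07, -0.09, 0.06 and -0.05.

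Of neighbouring members, 5 pairs are given here. Pairs were formed from members with a mean of at least 1 CPM. Each joins a member to the next such member on the chromosome, with starts within 200 kb. They were compared after the single genes had been seen. The log2 ratio of the 2 genes in a culture was tested with a two-sided exact permutation test over all splits of the 8 cultures into 4 and 4, for which 0.0286 is the smallest p, and adjusted over the 7 pairs compared. On chromosome 13, *Foxq1* and *Foxf2* (starts 69.7 kb apart) both rose. The log2 ratio of *Foxq1* to *Foxf2* went from -4.14 ± 0.23 (SD, n = 4) with vehicle to -3.04 ± 0.08 (SD, n = 4) with TGF-β1. Next to them *Foxf2* rose and *Foxc1* fell (180.8 kb apart), and their log2 ratio went from -3.73 ± 0.07 (SD, n = 4) with vehicle to -2.87 ± 0.06 (SD, n = 4) with TGF-β1. For this pair, and for *Foxc2* and *Foxl1*, the genes had already been seen to separate the groups in opposite directions. For *Foxq1* and *Foxf2*, and for *Foxf1* and *Foxc2*, the ranges of the single genes already left no room for the ratios to overlap. This fixes the separation of the ratio in each of these pairs, so the values are a description and no p is given. On chromosome 8, *Foxc2* lies 31.8 kb from *Foxf1* and 11.8 kb from *Foxl1*. The log2 ratio of *Foxf1* to *Foxc2* went from -1.79 ± 0.07 (SD, n = 4) with vehicle to -0.95 ± 0.06 (SD, n = 4) with TGF-β1. That of *Foxc2* to *Foxl1* went from 2.68 ± 0.04 (SD, n = 4) with vehicle to 1.66 ± 0.08 (SD, n = 4) with TGF-β1. *Foxc2* thus fell between a neighbour that was not called and one that rose.

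For the sine oculis genes *Six3* and *Six2* on chromosome 17, neither of them called, the log2 ratio of *Six3* to *Six2* went from -3.84 ± 0.14 (SD, n = 4) with vehicle to -3.89 ± 0.13 (SD, n = 4) with TGF-β1 (exact p = 0.486, adjusted 0.567), and the groups overlapped.

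**Figure D5:**
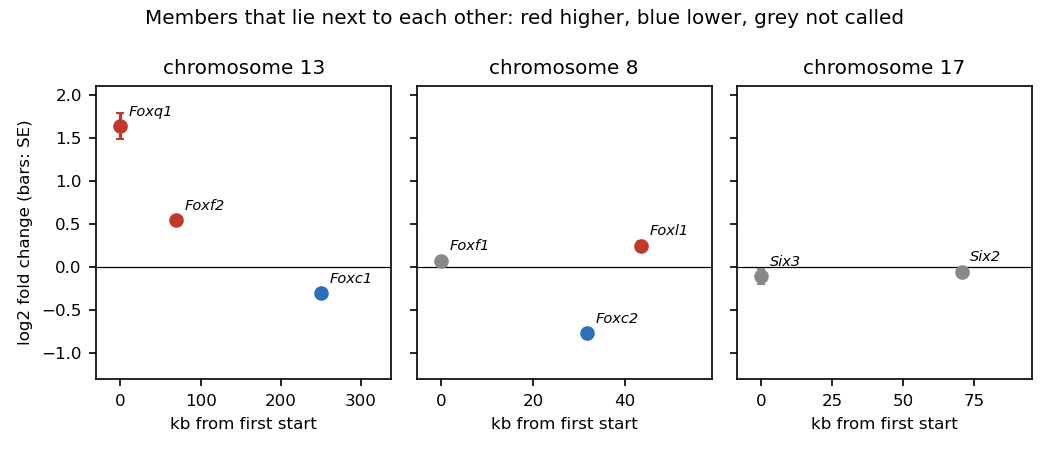
Log2 fold change of TGF-β1 over vehicle (bars, SE) of neighbouring members against distance in kb from the first start, on chromosomes 13, 8 and 17 (red higher, blue lower, grey not called). On chromosome 13 the change runs from 1.63 for *Foxq1* through 0.54 for *Foxf2* to -0.31 for *Foxc1*, and on chromosome 8 *Foxc2* at -0.77 lies between *Foxf1* at 0.07 and *Foxl1* at 0.25.

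The T-box genes that were called all fell. *Tbx20*, a cardiac T-box factor, was at 163, 147, 156 and 160.1 CPM in the vehicle cultures and 93.6, 87.2, 84.7 and 83.7 CPM in the TGF-β1 cultures (log2 fold change -0.84 ± 0.03 (SE), edgeR adjusted p = 6.22e-21). The lowest vehicle culture was far above the highest TGF-β1 culture. *Tbx18*, a lineage marker of pericytes and smooth muscle in many organs, was at 63.1, 61.2, 63.3 and 62.6 CPM in the vehicle cultures and 47.1, 44.1, 48.7 and 46.8 CPM in the TGF-β1 cultures (log2 fold change -0.42 ± 0.03 (SE), edgeR adjusted p = 3.25e-14). *D030062O11Rik* overlaps 20.6% of its exon bases on the opposite strand and was at 1.45 ± 0.218 CPM with vehicle. *Tbx2*, a repressor of cell cycle inhibitors, went from 6.56 ± 0.391 to 4.26 ± 0.473 CPM (log2 fold change -0.63 ± 0.10 (SE), edgeR adjusted p = 6.41e-07). *Tbx15*, the member with the highest level per kilobase, fell slightly, from 203 ± 4.62 to 185 ± 5.02 CPM (log2 fold change -0.13 ± 0.03 (SE), edgeR adjusted p = 3.18e-05). The groups did not overlap in any of these 4 genes. *Tbx3*, *Tbx6* and *Tbx10* were not called, with log2 fold changes of 0.08, 0.10 and 0.80. All TGF-β1 cultures were above all vehicle cultures for *Tbx10*, but it averaged only 0.289 CPM (edgeR adjusted p = 0.092). *Tbx1*, *Tbx4*, *Tbx5*, *Tbx19*, *Tbx21* and *Tbx22* were too low to be tested.

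Sox genes are described by subgroup. *Sox2*, the SoxB1 factor of neural stem cells and glia, was at 8.11, 8.79, 8.60 and 8.27 CPM in the vehicle cultures and 3.71, 3.85, 3.47 and 3.57 CPM in the TGF-β1 cultures (log2 fold change -1.21 ± 0.09 (SE), edgeR adjusted p = 2.00e-15), the largest fall among members with a mean of at least 1 CPM. *Sox9*, the SoxE factor of cartilage, neural crest and astrocytes, was at 147, 144, 145 and 146 CPM in the vehicle cultures and 109, 114, 112 and 104 CPM in the TGF-β1 cultures (log2 fold change -0.41 ± 0.03 (SE), edgeR adjusted p = 6.72e-17). *Sox10*, its relative in neural crest and Schwann cells, was called lower but at a very low level, with 0.412, 0.263, 0.715 and 0.411 CPM in the vehicle cultures and 0.327, 0.0435, 0.349 and 0.128 CPM in the TGF-β1 cultures (log2 fold change -1.09 ± 0.42 (SE), edgeR adjusted p = 0.037). Its groups overlapped and its call was lost in several alternatives. Of the SoxD genes *Sox6* was lower and *Sox5* and *Sox13* were not called.

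*Sox2*, *Sox9* and *Sox10* are also known from glia. A list of 8 astrocyte markers, 7 tested, had 2 genes higher (*Aldh1l1* and *Slc1a3*), 2 lower and 3 not called, and summed from 251 to 263 CPM with vehicle and from 227 to 238 CPM with TGF-β1, mostly *Gja1*. In it *S100b* went from 4.79 ± 0.130 to 1.64 ± 0.216 CPM and *Slc1a2* from 38.5 ± 2.88 to 16.3 ± 0.995 CPM. *Gfap* was at 0.878 CPM with vehicle and *Aqp4* had no count in any vehicle culture. A list of 9 oligodendrocyte and Schwann cell markers, 4 tested, had 1 higher (*Mbp*), 1 lower (*Sox10* itself) and 2 not called, and summed from 4.21 to 5.63 CPM with vehicle and from 5.46 to 6.13 CPM with TGF-β1. *Pmp2* was at 0 in every culture, and *Olig2* and *Mag* had 2 counts in 1 vehicle culture each. The part of glial cells in the Sox changes was not tested.

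All 3 SoxC genes, which act in embryonic mesenchyme and young neurons, were higher with TGF-β1. *Sox11* was at 1.04, 0.833, 1.14 and 0.822 CPM in the vehicle cultures and 1.44, 1.33, 2.09 and 2.23 CPM in the TGF-β1 cultures (log2 fold change 0.89 ± 0.20 (SE), edgeR adjusted p = 0.000219). Its groups did not overlap, but cultures 7 and 8 were well above cultures 5 and 6. *Sox12* was at 21.4, 17.9, 17.9 and 18.5 CPM in the vehicle cultures and 24.2, 25.1, 22.9 and 23.8 CPM in the TGF-β1 cultures (log2 fold change 0.34 ± 0.05 (SE), edgeR adjusted p = 7.58e-07), also without overlap. *Sox4* went from 57.8 ± 3.52 to 63.7 ± 4.11 CPM (log2 fold change 0.14 ± 0.04 (SE), edgeR adjusted p = 0.0145), with overlapping groups, and 54.6% of its exon bases lie opposite *Gm26735*, which was at or near 0. The call of *Sox4* was lost without culture 5 or without culture 6. Beside these rises, a list of 8 neuronal markers, 5 tested, had 1 higher (*Tubb3*, from 2.11 ± 0.313 to 7.90 ± 1.09 CPM), 1 lower (*Map2*) and 3 not called, and summed from 14.7 to 17.3 CPM with vehicle and from 16.6 to 20.2 CPM with TGF-β1. *Rbfox3*, *Snap25* and *Stmn2* averaged 0.195, 0.162 and 0.103 CPM with vehicle and 0.119, 0.169 and 0.282 CPM with TGF-β1. The part of neuronal cells in the SoxC rises was not tested. Of the SoxF genes, which act in endothelium, *Sox17* and *Sox18* were too low to be tested, and *Sox7* was called higher at 0.222 to 0.438 CPM with overlapping groups.

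Genes of cartilage matrix, for which *Sox9* is the activator in chondrocytes, went both ways. Of 13 on the list 9 were tested, with 2 higher, 4 lower and 3 not called, beside 20.9% higher and 20.3% lower over all tested genes. *Col11a1* went from 85.1 ± 3.66 to 241 ± 16.4 CPM (log2 fold change 1.502 ± 0.05 (SE), edgeR adjusted p = 2.84e-11) and *Matn3* from 0.215 ± 0.0414 to 0.487 ± 0.203 CPM (log2 fold change 1.17 ± 0.37 (SE), edgeR adjusted p = 0.00939), while *Col9a2* went from 0.906 ± 0.239 to 0.433 ± 0.0942 CPM (log2 fold change -1.06 ± 0.27 (SE), edgeR adjusted p = 0.00125). *Col2a1*, the main cartilage collagen, was at 0.584 CPM with vehicle and was not called, and *Acan* was too low to be tested.

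Sine oculis genes act in muscle, ear and kidney progenitors. *Six4*, which takes part in muscle formation, was at 85.2, 80.0, 80.3 and 84.8 CPM in the vehicle cultures and 68.3, 61.8, 67.5 and 65.6 CPM in the TGF-β1 cultures (log2 fold change -0.33 ± 0.03 (SE), edgeR adjusted p = 1.57e-11). All TGF-β1 cultures were below all vehicle cultures. *Six2*, the family member with the highest level per kilobase, was at 88.9, 90.1, 94.6 and 92.6 CPM in the vehicle cultures and 89.8, 88.3, 90.7 and 83.9 CPM in the TGF-β1 cultures and was not called (log2 fold change -0.05 ± 0.03 (SE), edgeR adjusted p = 0.147), with overlapping groups. *Six6*, an eye and pituitary gene, had a log2 fold change of -0.81 and was called lower, but averaged only 1.11 CPM with overlapping groups. *Six3*, a forebrain and eye gene, was at 6.41 CPM with vehicle and not called.

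The partners of sine oculis proteins moved both ways. Of 6 Eya and Dach genes, which encode coactivators and corepressors of these proteins, 3 were higher, 2 were lower and *Eya3* was not called. Over all tested genes 20.9% were higher and 20.3% lower. *Eya1* went from 59.98 ± 2.90 to 20.9 ± 1.18 CPM (log2 fold change -1.52 ± 0.04 (SE), edgeR adjusted p = 4.63e-30) and *Eya2* from 83.2 ± 2.20 to 40.3 ± 1.40 CPM (log2 fold change -1.04 ± 0.03 (SE), edgeR adjusted p = 4.11e-28). *Dach1* was higher but low, from 0.367 ± 0.0590 to 0.664 ± 0.221 CPM (log2 fold change 0.85 ± 0.30 (SE), edgeR adjusted p = 0.0208). The groups did not overlap in these 3 genes.

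Meis and Pbx genes, the partners of Hox proteins, were expressed although Hox genes were not, and the Meis genes changed little. *Meis3*, the highest Meis gene per kilobase, was at 37.7, 36.9, 38.5 and 38.3 CPM in the vehicle cultures and 33.6, 33.3, 34.0 and 34.1 CPM in the TGF-β1 cultures (log2 fold change -0.16 ± 0.04 (SE), edgeR adjusted p = 0.000434), without overlap. *Meis1* and *Meis2* were also called lower, with log2 fold changes of -0.21 and -0.08 and overlapping groups. The call of *Meis2* was lost in several alternatives and that of *Meis1* in 1. *Meox1*, a mesoderm homeobox gene, averaged 0.136 CPM and *Meox2* 0.0326 CPM, and neither was tested.

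Of 5 other TALE homeobox genes, 3 were higher and none was lower, beside 20.9% higher and 20.3% lower over all tested genes. *Mkx*, which controls tendon matrix, went from 20.7 ± 1.6 to 45.03 ± 3.13 CPM (log2 fold change 1.118 ± 0.05 (SE), edgeR adjusted p = 2.31e-19). *Tgif1*, a SMAD corepressor, went from 63.8 ± 0.517 to 103 ± 3.99 CPM (log2 fold change 0.69 ± 0.03 (SE), edgeR adjusted p = 2.52e-23), and *Pknox1*, a partner of Pbx proteins, from 19.2 ± 0.742 to 22.3 ± 1.02 CPM (log2 fold change 0.21 ± 0.05 (SE), edgeR adjusted p = 0.000579). *Pknox2* and *Tgif2* were not called.

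Among the 58 other patterning factors, 40 were tested, and 7 were higher, 15 lower and 18 not called. That is 55.0% called, against 41.3% of all tested genes and 51.1% of those with a mean of at least 1 CPM. Higher were 17.5% of the 40 and lower 37.5%, against 20.9% and 20.3% of all tested genes. *Isl1* and *Pax9* had some of the largest changes, both falls. *Isl1*, a LIM homeobox gene of motor neurons and heart progenitors, went from 12.8 ± 0.530 to 5.13 ± 1.121 CPM (log2 fold change -1.32 ± 0.10 (SE), edgeR adjusted p = 1.49e-12), and *Pax9*, a paired box gene of skull and tooth mesenchyme, from 19.9 ± 0.924 to 8.81 ± 0.613 CPM (log2 fold change -1.18 ± 0.06 (SE), edgeR adjusted p = 2.76e-20). The groups did not overlap in these 2 genes. The median log2 fold change over the 40 was -0.07, against -0.01 over all tested genes.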

How the data were processed

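Bulk RNA-seq of 8 cultures was used, 1 library each. The authors deposited counts per gene, without normalization. According to the study's methods and the submitters' processing notes, reads were aligned to mm10 with STAR 2.7.5c, PCR duplicates were removed with SAMtools 1.15 and reads were counted with featureCounts 2.0.3. The library kit was stranded. The annotation release, the strand setting used for counting and the treatment of reads shared by genes are not given in the sources used here. Of the counts from 1 to 20, 68.5% to 70.2% per culture were even, and whether both mates of a pair were counted is not given. Values of 3 counts describe counting error only.

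Symbols, positions and exon lengths came from GENCODE M21 (GRCm38), which placed 54495 of the 54532 identifiers. Genes were tested with edgeR 4.0.16 in R 4.3.3 (filterByExpr, TMM factors, robust quasi-likelihood fit, Benjamini-Hochberg adjustment over 22544 genes, threshold 0.05) between the 4 cultures of each group, and the SE is the log2 fold change divided by the square root of F. The test was also run on simulated data for these 22544 genes. In them 61 genes were changed by 0.5, 72 by 1 and 59 by 1.5 on the log2 scale. It recovered 65.6%, 90.3% and 94.9% of these, and 3.01% of its calls were false. In the cultures 9304 genes were called, far more than were changed in the simulation, so these shares do not carry over to the cultures. The alternatives were DESeq2 1.42.0, other scaling factors, other filters, halved counts and each culture left out.

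The members, the lists of other transcription factors and cell type markers, and the tests were chosen with earlier results of these data known. Values are given for up to 12 rises and 12 falls among called members whose mean reached 1 CPM and whose groups do not overlap (13 rises and 17 falls met this), for the highest member of each family per kilobase, for *Foxf2*, *Foxc1*, *Foxs1*, *Tbx18*, *Tbx2* and *Foxd1*, and for the 3 largest changes of each list of other transcription factors and targets. Other members named were chosen after their values were seen. Some genes that meet these rules are not reported here.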

Additional observations from a re-analysis of the deposited data

How the results depend on the processing

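For the 28 tested members that the naming rule picked, 417 of 420 alternative values kept their direction and their side of the threshold. The other 3 were those of *Foxo3*, which was not called: its log2 fold change of 0.01 became -0.0024 with library totals as the only scaling, -0.0034 without TGF-β1 culture 5 and -0.0131 without TGF-β1 culture 7, and leaving out 1 culture at a time gave -0.0131 to 0.0300. The number of all genes called ranged from 8559 to 9311 over the alternatives. The members called ranged from 32 to 38, with 13 to 17 higher and 19 to 21 lower, and the scaling alternatives moved the median log2 fold change of all genes by at most 0.0111. Outside these 28, calls lost in some alternatives were those of *Meis2*, *Sox7*, *Sox10*, *Foxn1*, *Sox4*, *Foxo4*, *Sox6* and *Meis1*. DESeq2 called 34 of the 38, without *Foxn1*, *Meis2*, *Sox7* and *Sox10*. Without TGF-β1 culture 6, 32 were called. The number of members counted as expressed was 53 at 0.5 CPM and 47 at 2 CPM. No paired analysis was possible because the vehicle and TGF-β1 cultures share no replicate number in the labels. The depth limits statements on Hox genes to levels above about 3 counts, 0.0630 to 0.0663 CPM.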
